A study of Schizosaccharomyces pombe with 29 samples.

Results

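The genes described here are 210 fission yeast genes whose product text in the deposited annotation calls them specific to Schizosaccharomyces pombe or to the genus Schizosaccharomyces. They were chosen by that wording alone among the 6986 gene IDs of the count table, 5107 of which are protein-coding in the reference annotation. Genes named mug followed by a number (40 with the wording) and genes of clones named in the rule, mostly from chromosome ends (22 with the wording), were left out. Of the 210, 130 were worded as specific to the genus and 80 as specific to S. pombe. Only 20 carried a common name in the deposited table, and 190 were known by their systematic ID alone. In the newer RefSeq annotation 208 of the 210 IDs were found, 91 on chromosome I, 65 on chromosome II and 52 on chromosome III, and 167 of them were still listed as uncharacterized proteins.

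Orphan genes are genes for which no relative can be recognised outside a narrow lineage. They include genes that arose recently from sequence that did not code for protein, and old genes whose sequence changed until the relation was lost. They are typically short and weakly expressed, and in fission yeast many were named after high-throughput screens, such as the meu genes, whose transcripts rise in meiosis. All are transcribed by RNA polymerase II, whose largest subunit, Rpb1, carries a carboxy-terminal domain (CTD) built from repeats of the heptad Tyr1-Ser2-Pro3-Thr4-Ser5-Pro6-Ser7.

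Polyadenylated RNA was sequenced from strains in which the repeats of the CTD carried a substitution or were reduced in number, and the study asked which transcripts depend on each heptad position. The count table held 31 libraries in 10 groups. The groups with a substitution had 29 repeats of the form Y1F, S2A, S2A-S7A, T4A, ALT-P3A, ALT-S5A or ALT-P6A, with 3 libraries each. ALT is not spelled out in the labels; in published work on these alleles it means that altered and wild-type repeats alternate. The WT18 group had 18 wild-type repeats and 4 libraries. The controls had 29 wild-type repeats (WT29) and came as control set 1 (3 libraries, replicates 1 to 3), named in the labels as the control of Y1F, S2A and S2A-S7A, and control set 2 (3 libraries, replicates 4 to 6), named as the control of the other alleles. The new strains, controls included, were h+ with a NatMX-marked rpb1 allele, and were grown in log phase in YES medium at 30 °C. The labels of T4A give neither mating type nor marker, and its libraries, re-analysed from an earlier series, were read on another Illumina instrument. In WT18, replicates 1 and 2 were new, and replicates 3 and 4 came from an earlier series, from an h- ade6 ura4-D18 leu1-32 strain with another RNA purification, library kit and instrument. These differences cannot be told apart from the T4A allele, or from the new and earlier pairs of WT18. Each allele is 1 strain, so strain and allele cannot be told apart either.

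The total per library ran from 15243598 to 35763201 counts, with a median of 22835109. The 3 control columns numbered 4 to 6 were taken as control set 2 by elimination, since no label names them and control set 2 has 1 record without replicate numbers; every comparison with control set 2 rests on this. The summed level of 4 genes listed for P (h+) cells was 408 to 448 CPM (counts scaled for library size) in the earlier WT18 libraries and 444 to 468 CPM in the new ones. That of 7 genes listed for M (h-) cells was 137 to 151 and 120 to 126 CPM. The first list held mam2 and the second map3, which are receptor genes of the opposite mating type. Each sum therefore mixes both types and cannot show whether the strains labelled h- and h+ differ in mating type. The 2 control sets bear the same strain label but differed: 8.89% of the 6043 genes tested were called between them. The fold changes in the authors' deposited tables lay within a median of 0.02 (log2) of those computed here for Y1F, S2A and S2A-S7A. For the alleles paired with control set 2 the median distance was 0.52 to 0.54, against 0.26 to 0.28 when control set 1 was used instead. Calls that held against both control sets and in the authors' deposited tables are therefore given first for each allele. Whether replicates were separate cultures is not stated for the new strains, so the p-values measure the spread between these libraries, which may be technical.

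The orphan genes encoded short proteins. Their median length was 142.5 amino acids (range 32 to 952), against 390 for the 4790 other coding genes of the table, and 107 of 208 (51.4%) encoded fewer than 150 amino acids, against 11.8% of the others. The S. pombe-specific genes were the shortest, with a median of 114 amino acids and 80.8% under 150, against 204.5 amino acids and 33.8% for the genus-specific genes. A single coding exon was annotated for 75% of the orphan genes and for 51.7% of the other coding genes. A gene on the opposite strand overlapped 173 of them (83.2%), which was no more than among other coding genes (90.7%). The library kits mark strand, but how the counting treated strand is not given in the sources used here, so reads of an orphan gene and of its antisense partner could have been mixed. Only 19 had another orphan gene as the adjacent coding gene on either side, and 15 lay within 150 kb of a chromosome end.

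Their transcripts were also scarcer per length. Over the 6 control libraries the median level was 16.2 RPKM (CPM per kilobase of exon) for the orphan genes, 32.6 RPKM for the other coding genes, 23.7 RPKM for the genus-specific genes and 5.02 RPKM for the S. pombe-specific genes. Levels under 1 RPKM were found for 34 orphan genes (16.3%), 23 of them S. pombe-specific, and for 3.11% of the other coding genes. No count in any library was recorded for 2 orphan genes. The range was nevertheless wide. SPAC922.04, a genus-specific gene of 117 amino acids, had the highest level, with a mean of 1770 RPKM over the controls, and was followed by SPAPB18E9.05c (910 RPKM), SPAPB24D3.07c (781 RPKM), adg1 (445 RPKM) and SPBC29A3.21 (310 RPKM). Across the 10 groups SPAC922.04 ranged from 1150 RPKM in WT18 to 2320 RPKM in control set 2, and SPAPB18E9.05c from 588 RPKM in WT18 to 1690 RPKM in T4A. SPAC922.04 was called lower in WT18 than in control set 2 (log2 fold change -1.01) and changed by 0.97 from control set 1 to control set 2. SPAPB24D3.07c differed more between the control sets, at 1380 RPKM in control set 1 and 185 RPKM in control set 2.

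**Figure D1:**
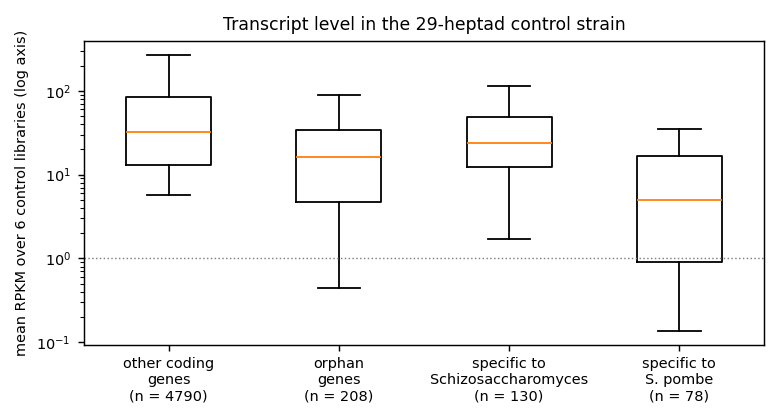
Level over the control libraries, in RPKM on a log axis, of other coding genes, orphan genes, genus-specific and S. pombe-specific genes; boxes span the quartiles with the median, and whiskers run from the 10th to the 90th percentile. The median of the S. pombe-specific genes (5.02 RPKM) lies below that of the genus-specific genes (23.7 RPKM), and the dotted line marks 1 RPKM.

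After the filter on low counts, 182 to 187 of the 210 orphan genes were tested in a comparison; 181 were tested in every comparison, 7 in some and 22 in none. A gene was called when its adjusted p (edgeR quasi-likelihood test, Benjamini-Hochberg over all genes tested) was under 0.05 and it changed at least 2-fold. Over the 8 alleles, each set against the controls named for it, 110 orphan genes were called at least once, 72 of them in a substitution allele, and 78 were tested and called in none. In Y1F 28 of 183 orphan genes tested were called (15.3%; all genes 9.79%), 14 of them higher (all genes 4.68%) and 14 lower (all genes 5.11%). In S2A 27 of 182 were called (14.8%; all genes 12.9%), 11 higher (all genes 7.23%) and 16 lower (all genes 5.63%). In S2A-S7A 32 of 182 were called (17.6%; all genes 15.5%), 12 higher (all genes 5.89%) and 20 lower (all genes 9.61%). In T4A 31 of 182 were called (17%; all genes 13.2%), 14 higher (all genes 5.27%) and 17 lower (all genes 7.89%). The ALT alleles had fewer in these fits. In ALT-P3A 6 of 187 were called (3.21%; all genes 3.03%), 5 higher (all genes 1.96%) and 1 lower (all genes 1.07%). In ALT-S5A 13 of 186 were called (6.99%; all genes 5.8%), 6 higher (all genes 2.96%) and 7 lower (all genes 2.84%). In ALT-P6A 17 of 185 were called (9.19%; all genes 6.35%), 7 higher (all genes 3.12%) and 10 lower (all genes 3.23%). The largest count was in WT18, where 74 of 186 were called (39.8%; all genes 36.5%), 52 higher (all genes 24.8%) and 22 lower (all genes 11.7%). By the authors' deposited values at the same limits, 9 orphan genes were higher and 23 lower in ALT-P3A, 11 and 29 in ALT-S5A, and 8 and 31 in ALT-P6A. Those of Y1F were 15 and 16, of S2A 12 and 19, of S2A-S7A 14 and 19, and of T4A 8 and 30. In WT18 the authors' values gave 25 higher and 20 lower, against 52 and 22 in the fit made here. By the authors' values the ALT alleles did not have fewer calls as a group than the other substitution alleles. Shares over all genes were not computed for the authors' values. The share of orphan genes called was above that of all genes in each of the 8 comparisons, by the least in ALT-P3A, where the shares were nearly equal, and the most in Y1F. Between the 2 control sets it was below that of all genes (7.65% against 8.89%). These differences were not tested.

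All genes tested include many non-coding RNAs, and the share called among other coding genes was smaller in the substitution alleles. It was 5.48% in Y1F, 5.42% in S2A, 10.1% in S2A-S7A and 7.4% in T4A. For ALT-P3A it was 1.57%, for ALT-S5A 2.72% and for ALT-P6A 3.22%. In WT18 it was 37.0%, close to the share of the orphan genes. Between the control sets it was 5.16%.

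The median log2 fold change of the orphan genes was close to that of all genes tested in the substitution alleles, between -0.06 in S2A-S7A and 0.07 in ALT-P3A, where the medians over all genes were -0.03 and 0.0. In WT18 the median was 0.29 for the orphan genes and 0.05 for all genes.

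In the substitution alleles low levels went with more calls, among orphan and other coding genes alike. Under a mean of 10 CPM over all libraries, 26.3% of the orphan genes and 24.9% of the other coding genes were called in Y1F, and 25% and 29.2% in S2A. The shares were 26.8% and 37.3% in S2A-S7A, 30.4% and 28.5% in T4A, 38.3% and 49.1% in WT18, and 7.02% and 19.0% between the control sets. At 10 CPM or more, where 126 orphan genes and 4355 other coding genes were compared, the shares were 10.3% and 3.93% in Y1F, 10.3% and 3.51% in S2A, 13.5% and 7.97% in S2A-S7A, and 11.1% and 5.72% in T4A. They were 40.5% and 35.9% in WT18. Between the 2 control sets, which bear the same strain label, they were 7.94% and 4.04%. The differences between these shares were not tested.

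**Figure D2:**
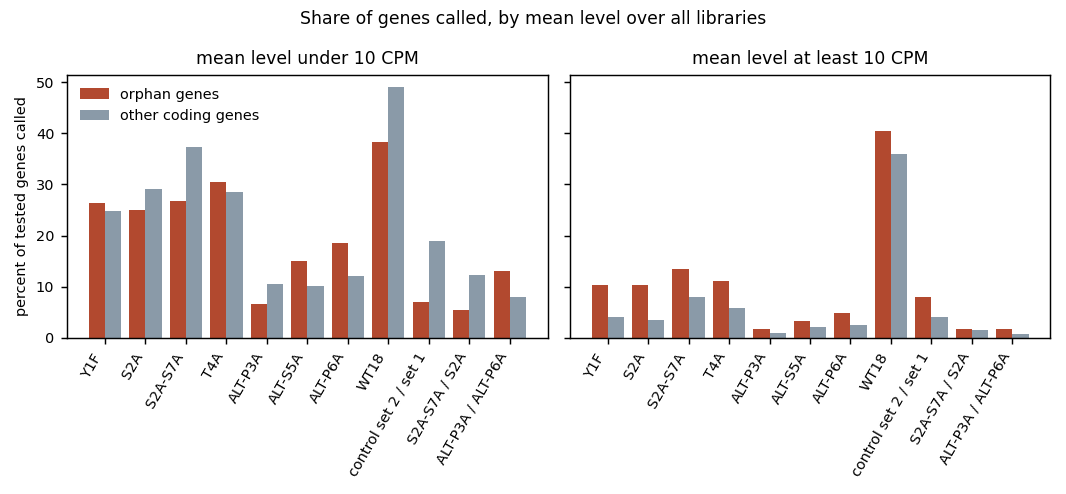
Percent of tested genes called in each of 11 comparisons, for orphan genes and other coding genes, split at a mean of 10 CPM over all libraries. At 10 CPM or more, 10.3% of orphan genes and 3.93% of other coding genes were called in Y1F; under 10 CPM the shares were 26.3% and 24.9%.

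The classes of product wording differed in the direction of their calls in most substitution alleles, with more lower calls among the S. pombe-specific genes and more higher calls among the genus-specific ones. Among the S. pombe-specific genes, 4 were higher and 11 lower of 59 tested in Y1F, 2 and 13 of 59 in S2A, 7 and 12 of 59 in S2A-S7A, 6 and 14 of 59 in T4A, 1 and 1 of 62 in ALT-P3A, 2 and 6 of 62 in ALT-S5A, and 2 and 9 of 61 in ALT-P6A. Among the genus-specific genes, 10 were higher and 3 lower of 124 in Y1F, 9 and 3 of 123 in S2A, 8 and 3 of 123 in T4A, 4 and 0 of 125 in ALT-P3A, 4 and 1 of 124 in ALT-S5A, and 5 and 1 of 124 in ALT-P6A. S2A-S7A was an exception, with 5 genus-specific genes higher and 8 lower. Over all genes tested, the shares higher and lower were 4.68% and 5.11% in Y1F, 7.23% and 5.63% in S2A, and 5.89% and 9.61% in S2A-S7A. They were 5.27% and 7.89% in T4A, 1.96% and 1.07% in ALT-P3A, 2.96% and 2.84% in ALT-S5A, and 3.12% and 3.23% in ALT-P6A. In WT18 both classes had more higher than lower calls, 15 against 10 and 37 against 12, as did all genes (24.8% higher, 11.7% lower). The alleles share their controls in 2 sets, so these counts are not independent of each other. The difference between the classes was not tested, and the S. pombe-specific genes had the lower levels per length.

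**Figure D3:**
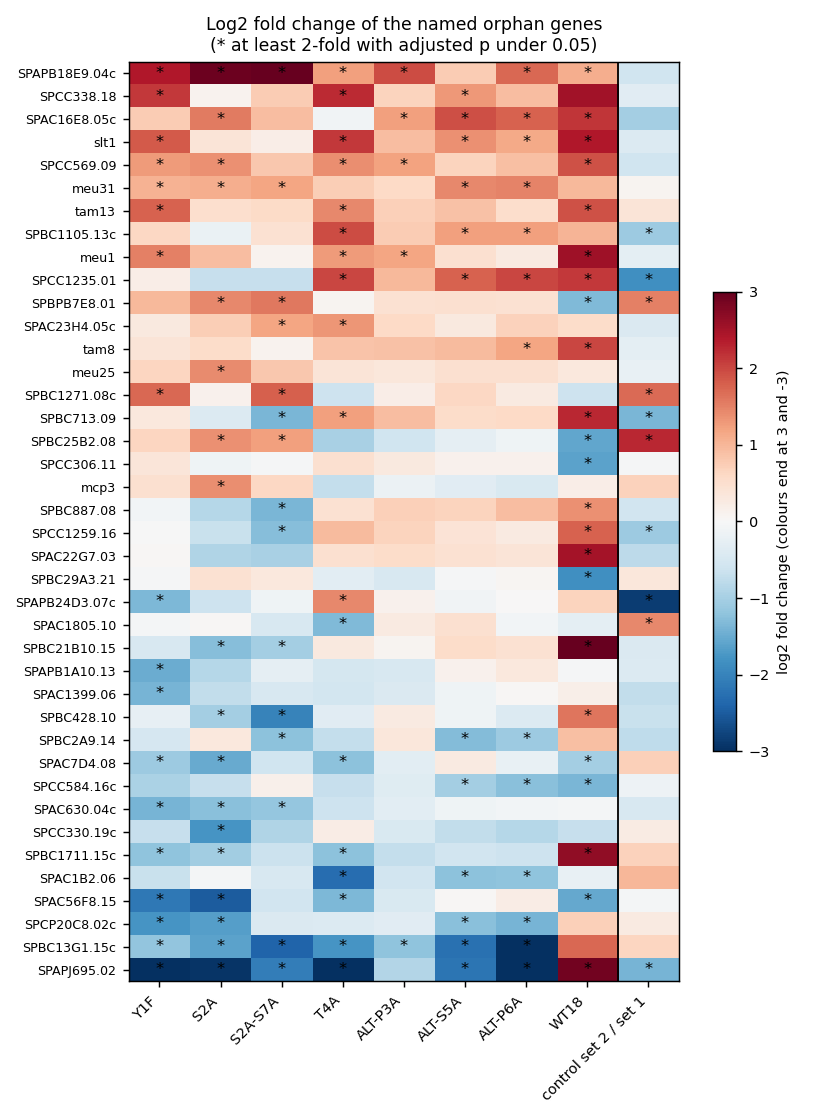
Log2 fold changes of the orphan genes named in any comparison (rows) in the 8 allele comparisons and between the control sets (columns); an asterisk marks a call and colours end at -3 and 3. SPAPB18E9.04c is high in several alleles, with 2.41 in Y1F and 3.06 in S2A-S7A, and SPAC56F8.15 is low, with -2.15 in Y1F and -2.49 in S2A.

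SPAPB18E9.04c, annotated as a possible cell surface glycoprotein specific to S. pombe, with 800 amino acids, had the largest rise of any named orphan gene in Y1F, S2A, S2A-S7A and ALT-P3A. Its level was 64.7, 62.2 and 52.5 CPM in control set 1, and 340, 310 and 314 CPM in Y1F. It was 491, 438 and 447 CPM in S2A. It was 525, 496 and 442 CPM in S2A-S7A. Each library of these 3 alleles lay above each control library. The log2 fold changes were 2.41 ± 0.09 (SE) in Y1F (adjusted p = 2.8e-10), 2.93 ± 0.10 in S2A (6.8e-08) and, for S2A-S7A, 3.06 ± 0.09 (8.9e-07), edgeR's test as above. In control set 2 it stood at 40.7, 34.9 and 39.8 CPM, and in ALT-P3A at 148, 165 and 135 CPM. In ALT-P6A it stood at 123, 130 and 131 CPM, and in T4A at 94.7, 109 and 77.6 CPM. These libraries too lay above each library of their control, with log2 fold changes of 1.95 ± 0.09 in ALT-P3A, 1.73 ± 0.07 in ALT-P6A and 1.24 ± 0.13 in T4A. Against control set 1 the change was 1.33 in ALT-P3A and 1.12 in ALT-P6A. The authors' deposited tables give 1.05 in ALT-P3A, 0.84 in ALT-P6A and 0.40 in T4A. ALT-S5A, at 74.2, 54.8 and 70.2 CPM, changed less than 2-fold (0.75). The next orphan gene along the chromosome, SPAPB18E9.05c, passed 2-fold in T4A (1.28 ± 0.11) but had log2 fold changes of 0.08 in Y1F, 0.37 in S2A and 0.15 in ALT-P3A. An overlapping antisense RNA, SPNCRNA.953, had a log2 fold change of 0.19 in ALT-P3A and -0.66 in S2A.

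**Figure D4:**
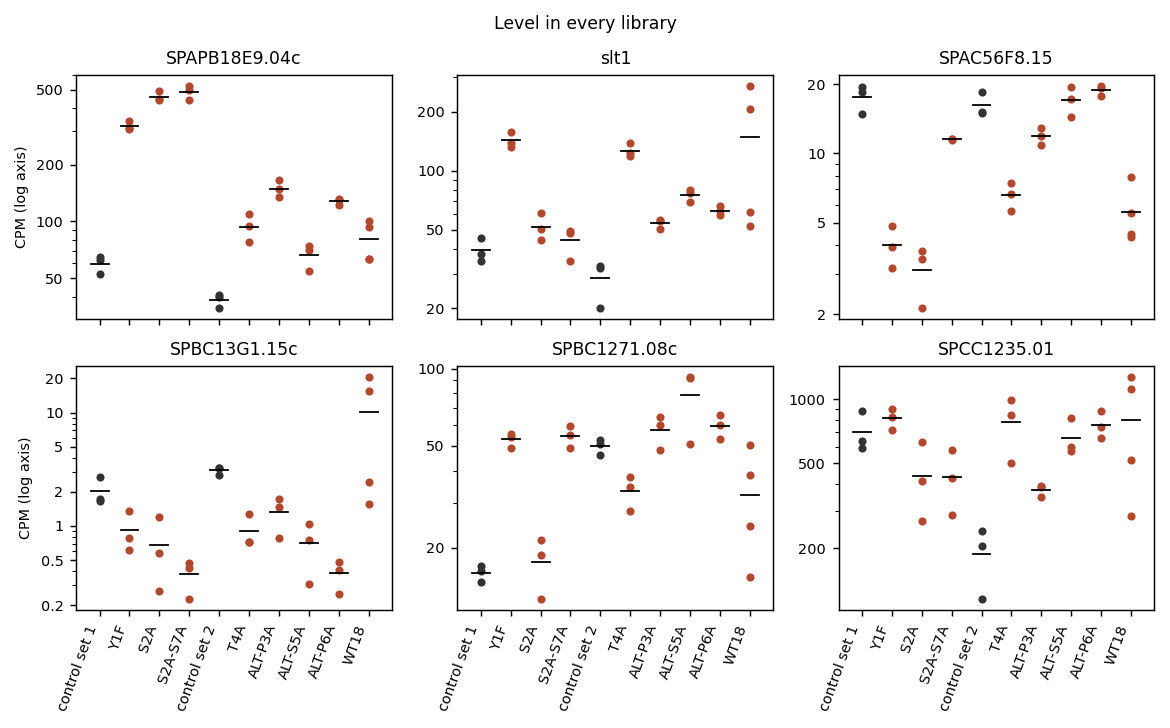
CPM in every library of 6 orphan genes (points), with group means (bars), for the 10 groups. SPAPB18E9.04c reaches 525 CPM in S2A-S7A against at most 64.7 CPM in the controls, while SPCC1235.01 differs chiefly between the control sets, with 589 to 881 CPM in set 1 and 116 to 242 CPM in set 2.

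In Y1F, in which the tyrosine of the heptad is replaced by phenylalanine, 11 of the 14 higher and 9 of the 14 lower calls held against both control sets and in the authors' deposited table. The higher ones included slt1 and tam13, both genus-specific, the uncharacterized SPCC338.18, and the meiotic transcripts meu1, meu18 and meu32. The level of slt1 was 139, 158 and 132 CPM in Y1F and 34.9, 37.7 and 45.6 CPM in control set 1, a log2 fold change of 1.85 ± 0.11 (adjusted p = 1.7e-08, edgeR). The level of tam13, a gene of 95 amino acids named for transcripts altered in meiosis, was 76.1, 73.4 and 64.0 CPM against 22.3, 19.6 and 20 CPM (1.77 ± 0.11). SPCC338.18 was at 12.6, 12.0 and 12.8 CPM against 2.78, 3.35 and 2.38 CPM (2.12 ± 0.16). For these 3 genes the Y1F and control libraries did not overlap, and the changes against control set 2 were 2.30, 1.41 and 2.48.

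Among orphan genes whose average log2 CPM reached 1, the largest fall in Y1F was that of SPAC56F8.15, an S. pombe-specific gene of 176 amino acids, at 3.18, 3.94 and 4.86 CPM against 14.8, 19.4 and 18.5 CPM (-2.15 ± 0.18, adjusted p = 4.8e-07, edgeR). SPAPB1A10.13, a genus-specific gene of 529 amino acids, was at 19.5, 17.7 and 17.8 CPM against 48.7, 51.6 and 53.5 CPM (-1.5 ± 0.10). SPCP20C8.02c, of the UPF0321 family, fell from 3.89, 4.59 and 4.61 CPM to 1.71, 0.772 and 1.40 CPM (-1.78 ± 0.25). In each of the 3 the Y1F libraries lay below the controls. The family of SPCP20C8.02c has near-identical copies, so its counts are uncertain. The falls of SPAC1399.06 (-1.40 ± 0.15) and SPAC630.04c (-1.40 ± 0.11) were -0.65 and -0.90 against control set 2.

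In S2A, without the serine at position 2, 5 of the 11 higher and 10 of the 16 lower calls held against both control sets and in the authors' deposited table. Beside SPAPB18E9.04c the higher ones were meu18, meu25, SPCC569.09 and SPAC16E8.05c. SPAC16E8.05c encodes Mde1, named for its dependence on the meiotic transcription factor Mei4, and was at 2.58, 3.96 and 5.67 CPM against 0.864, 1.42 and 1.81 CPM (1.57 ± 0.35, adjusted p = 0.0064, edgeR). Meu25 transcripts were at 10.2, 12.0 and 15.1 CPM against 4.46, 5.49 and 3.94 CPM (1.41 ± 0.22). These groups did not overlap, but the antisense RNA SPNCRNA.1447 at meu25 rose as well (1.48, from 13.8 to 38.8 CPM). The same was seen at mcp3, a genus-specific gene of 952 amino acids linked to meiosis, with 1.39 ± 0.22 for mcp3 and 1.04 for SPNCRNA.1044. The call of mcp3 did not hold against control set 2. Its mean level was 8.09 CPM there and 5.24 CPM in control set 1. Whether sense and antisense reads were mixed was not tested.

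At the same level limit the largest fall in S2A was again that of SPAC56F8.15, at 3.78, 2.14 and 3.48 CPM against 14.8, 19.4 and 18.5 CPM (-2.49 ± 0.24, adjusted p = 3.9e-05, edgeR). SPCC330.19c, of 90 amino acids, was at 1.15, 1.02 and 1.43 CPM against 4.65, 3.95 and 3.66 CPM (-1.77 ± 0.25). SPAC7D4.08, of 96 amino acids, was at 2.23, 0.803 and 1.67 CPM against 4.89, 5.19 and 3.37 CPM (-1.52 ± 0.34). The antisense RNA SPNCRNA.1106 at SPCC330.19c fell too (-2.83), at low levels (from 1.99 to 0.269 CPM). The S2A libraries of these genes lay below every library of control set 1, at levels of a few CPM. The call of SPCP20C8.02c (-1.65 ± 0.58, adjusted p = 0.047) was lost without control replicate 1, 2 or 3 (0.09, 0.078 and 0.089) and without S2A replicate 2 (0.11). SPBPB7E8.01, a predicted GPI-anchored protein, rose against control set 1 (724, 868 and 914 CPM against 352, 302 and 259 CPM, 1.45 ± 0.13) but not against control set 2 (-0.07), where it stood at 803, 725 and 981 CPM.

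S2A-S7A adds the loss of the serine at position 7. Fewer of its calls held against both control sets and in the authors' deposited table, 4 of the 12 higher (SPAPB18E9.04c, meu18, meu31 and SPAC23H4.05c) and 5 of the 20 lower. Among the latter, SPBC428.10, an S. pombe-specific gene of 845 amino acids, was at 4.94, 9.21 and 7.27 CPM against 22.6, 28.0 and 36.2 CPM (-2.0 ± 0.26, adjusted p = 0.00032, edgeR). Its antisense RNA SPNCRNA.1362 rose by 1.27 (log2), at low levels (from 0.797 to 1.87 CPM). SPAC23H4.05c, of 97 amino acids, was at 7.12, 6.24 and 7.74 CPM against 2.93, 3.43 and 3.14 CPM (1.18 ± 0.17). Both genes had no overlap between S2A-S7A and control libraries. SPBC713.09 (-1.36 ± 0.35) and SPCC1259.16 (-1.27 ± 0.32) passed 2-fold against control set 1, but changed by 0.03 and -0.16 against control set 2, and did not pass it without control replicate 3 and without S2A-S7A replicate 1, respectively (-0.98 in both).

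Setting S2A-S7A directly against S2A compares the 2 alleles without a control level. The libraries of control set 1 were still in the fit, for the filter, the scaling and the spread. This contrast called 4 orphan genes higher and 1 lower of 182 (2.75%; all genes 4.17%, with 1.6% higher and 2.56% lower), a share below that of all genes. SPAC56F8.15, low in S2A, stood at 11.4, 11.6 and 11.5 CPM in S2A-S7A and so was higher than in S2A by 1.91 ± 0.22 (adjusted p = 0.00044, edgeR), with no overlap. Its change in S2A-S7A against control set 1 was -0.58. SPBC1271.08c, an S. pombe-specific gene of 140 amino acids next to tgp1, which encodes a glycerophosphodiester transporter, stood at 48.9, 54.9 and 59.5 CPM in S2A-S7A and at 21.4, 18.8 and 12.6 CPM in S2A (1.67 ± 0.18, adjusted p = 0.00035). Its antisense RNA SPNCRNA.1344 rose as well in this contrast (1.02, from 2.34 to 4.67 CPM). Its level was 17, 16.2 and 14.7 CPM in control set 1, 55.7, 49.2 and 54.1 CPM in Y1F, but 51.0, 46.0 and 52.6 CPM in control set 2. The rises of SPBC1271.08c in Y1F (1.72 ± 0.11) and S2A-S7A (1.80 ± 0.12) were therefore 0.04 and 0.13 against control set 2. The fold change in the contrast with S2A does not rest on the level in either control, but its p-value used the spread of control set 1 too. The neighbour tgp1 changed by 0.69 in Y1F, by 1.44 in S2A, and by 2.40 in S2A-S7A. SPBC2A9.14, of 66 amino acids, was lower in S2A-S7A than in S2A, at 4.67, 3.92 and 3.40 CPM against 12.7, 12.0 and 11.5 CPM (-1.56 ± 0.19). With the replicate number as a block, since same-numbered libraries of these alleles deviated together, 3 orphan genes were lower. There were 7 higher and 4 lower without S2A replicate 1, 4 lower without S2A-S7A replicate 2, and 2 higher and 3 lower without S2A-S7A replicate 3. SPBC15D4.08c (1.02 ± 0.24) did not pass 2-fold without S2A replicate 1 (0.98) or S2A-S7A replicate 3 (0.91).

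In T4A, without the threonine at position 4, only 3 of the 14 higher calls and 7 of the 17 lower ones held against both control sets and in the authors' deposited table. The 3 were slt1, tam13 and SPCC338.18, which also rose in Y1F. In ALT-S5A slt1 (1.38) and SPCC338.18 (1.29) were called higher too, but not against both control sets and in the authors' deposited table. There tam13 changed less than 2-fold (0.88). In WT18 slt1 (2.41 ± 0.64) and tam13 (1.92 ± 0.68) were called higher, and SPCC338.18 (2.52 ± 1.24) was not called. The WT18 and control libraries overlapped for tam13. Of these WT18 calls only that of slt1 held against both control sets and in the authors' deposited table. The level of slt1 was 138, 119 and 123 CPM in T4A and 20.1, 32.9 and 31.9 CPM in control set 2 (2.11 ± 0.17, adjusted p = 1.4e-05, edgeR). That of tam13 was 77.7, 71.8 and 70.9 CPM against 27.9, 24.8 and 25.1 CPM (1.45 ± 0.12). SPCC338.18 was at 9.16, 13.3 and 9.48 CPM against 2.72, 2.18 and 1.59 CPM (2.24 ± 0.25). T4A and Y1F were compared with different control sets here, and in both alleles the libraries of these genes lay above those of the control. Of the lower ones, SPAC56F8.15 was at 7.41, 5.64 and 6.66 CPM against 15.2, 15 and 18.4 CPM (-1.35 ± 0.19, adjusted p = 0.00047), and SPBC13G1.15c, of 111 amino acids, at 0.721, 0.728 and 1.28 CPM against 3.22, 3.25 and 2.79 CPM (-1.78 ± 0.28).

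Several other T4A values rested on the control set. SPCC1235.01, a genus-specific gene of 658 amino acids, was at 847, 505 and 995 CPM against 116, 242 and 206 CPM (2.01 ± 0.29), but changed by 0.15 against control set 1. SPAC1805.10 was at 27.4, 25.4 and 27.3 CPM against 62.9, 72.3 and 58.5 CPM (-1.32 ± 0.13) and changed by 0.12 against control set 1. SPBC1105.13c (1.96 ± 0.17) and SPAC1B2.06 (-2.28 ± 0.22) changed by 0.85 and -1.30 against control set 1. Without T4A replicate 2 the higher calls numbered 25, and without control set 2 replicate 5 they numbered 22.

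Among the ALT alleles, ALT-P3A had few orphan calls, and SPAPB18E9.04c was the one higher call that held against either control set and in the deposited table of the authors. Higher calls in ALT-P3A numbered 5, but 2 without ALT-P3A replicate 1, 2 without control set 2 replicate 4, 3 without replicate 6 and 19 without replicate 5. SPCC569.09, of 99 amino acids and near the end of chromosome III, was at 18.5, 15.7 and 15.8 CPM against 7.5, 7.57 and 6.30 CPM (1.21 ± 0.15, adjusted p = 0.00049, edgeR), and changed by 0.59 against control set 1. The one lower call, SPBC13G1.15c (-1.20 ± 0.25), did not pass 2-fold without ALT-P3A replicate 2 (-0.95), and there were 2 lower calls without ALT-P3A replicate 3.

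In ALT-S5A and ALT-P6A the higher call that held in all 3 ways was meu31. Its level was 5.78, 8.43 and 5.76 CPM in ALT-S5A, 6.85, 7.92 and 5.50 CPM in ALT-P6A, and 1.96, 2.66 and 2.55 CPM in control set 2. Both groups lay above the control libraries, by 1.44 ± 0.22 in ALT-S5A (adjusted p = 0.00048, edgeR) and 1.49 ± 0.20 in ALT-P6A (0.00039). The lower calls that held in all 3 ways numbered 4 in ALT-S5A and 7 in ALT-P6A. Among them SPCC584.16c, a genus-specific gene of 231 amino acids, was at 38.2, 33.4 and 45.1 CPM in ALT-S5A (-1.03 ± 0.13) and 30.1, 35.2 and 31.8 CPM in ALT-P6A (-1.26 ± 0.10), against 81.5, 68.4 and 82.3 CPM in control set 2. Both alleles lay below the control, although ALT-S5A did not pass 2-fold without its replicate 2 (-0.93) or control replicate 4 or 6 (-0.97 for both). SPBC2A9.14 was at 2.15, 2.70 and 1.92 CPM in ALT-S5A and 2.15, 2.97 and 2.57 CPM in ALT-P6A against 5.49, 5.98 and 4.85 CPM (-1.30 ± 0.20 and -1.09 ± 0.18). SPCC1235.01 passed 2-fold in ALT-S5A (1.78 ± 0.21) and ALT-P6A (2.01 ± 0.23), but changed by -0.07 and 0.14 against control set 1. In ALT-P6A, tam8 (1.18 ± 0.23) was at 14.8, 15 and 13.8 CPM against 3.98, 7.98 and 7.06 CPM, and did not pass 2-fold without control replicate 4 (0.94). Without control set 2 replicate 5 the higher calls numbered 11 in ALT-S5A and 15 in ALT-P6A.

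The direct contrast of ALT-P3A with ALT-P6A called 8 orphan genes higher and 2 lower in ALT-P3A, of 187 (5.35%; all genes 3.2%, with 2.08% higher and 1.12% lower). SPBC2A9.14 was at 8.52, 5.70 and 6.75 CPM in ALT-P3A against 2.15, 2.97 and 2.57 CPM in ALT-P6A (1.44 ± 0.19, adjusted p = 0.00024, edgeR). SPBC1685.17, of 81 amino acids, was at 19.1, 22.6 and 20.3 CPM against 9.11, 8.37 and 8.06 CPM (1.26 ± 0.18). Neither gene had overlapping libraries. Of the 14 tested orphan genes within 150 kb of a chromosome end, 4 were higher in ALT-P3A and none lower. SPCC1235.01 was lower, at 390, 389 and 349 CPM against 656, 881 and 739 CPM (-1.03 ± 0.20), but did not pass 2-fold without ALT-P3A replicate 3 (-0.98) or ALT-P6A replicate 2 (-0.91). The lower calls numbered 1 without either of these libraries or without ALT-P6A replicate 1.

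SPAPJ695.02 and SPBC13G1.15c, both S. pombe-specific, had the widest ranges of group means of all orphan genes. SPAPJ695.02, of 70 amino acids and 74.5 kb from an end of chromosome I, was at 1.44, 2.57 and 3.66 CPM in control set 1, at 0.196, 0.122 and 0.0935 CPM in Y1F and at 0.401, 0.321 and 0.286 CPM in S2A. It was called lower in 6 of the 7 substitution alleles, with log2 fold changes of -4.19 in Y1F, -2.93 in S2A, -2.07 in S2A-S7A, -3.15 in T4A, -2.18 in ALT-S5A and -2.99 in ALT-P6A, and it was higher in WT18. From control set 1 to control set 2 it changed by -1.4. Its calls in S2A-S7A and WT18 did not hold against both control sets and in the authors' deposited table, while its other calls did. SPBC13G1.15c was called lower in all 7 substitution alleles, with -1.18 in Y1F, -1.60 in S2A, -2.40 in S2A-S7A, -2.23 in ALT-S5A and -3.01 in ALT-P6A beside the values given above for T4A and ALT-P3A. All of these calls but that in ALT-P3A held against both control sets and in the authors' deposited table. Both genes stood at a few CPM at most in the controls, so that the fitted folds rest on few counts in the alleles.

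In WT18, which keeps 18 wild-type repeats, 20 of the 52 higher and 7 of the 22 lower calls held against both control sets and in the authors' deposited table. The new pair of libraries alone called 50 higher and 25 lower, and the earlier pair alone 59 higher and 19 lower. Of the calls made with all 4 libraries, 34 higher and 10 lower ones were also made with each pair alone. The largest rise among orphan genes whose WT18 and control libraries did not overlap was that of SPBC21B10.15, a genus-specific gene of 60 amino acids, at 144 and 92.9 CPM in the new and 14.1 and 18.7 CPM in the earlier libraries, against 5.49, 7.16 and 6.30 CPM in control set 2 (3.45 ± 0.88, adjusted p = 0.0087, edgeR). All 4 libraries lay above the controls, but the rise was 4.26 with the new pair alone, 1.51 with the earlier pair alone and 2.76 without replicate 1. SPBC1711.15c, of 32 amino acids, behaved alike, at 97.6 and 79.0 CPM in the new and 10.7 and 14.2 CPM in the earlier libraries against 7.75, 7.98 and 9.03 CPM (2.65 ± 0.83, adjusted p = 0.021). Its rise was 3.46 with the new pair and 0.73 with the earlier pair, and its call was lost without control replicate 4, 5 or 6 (adjusted p of 0.073, 0.066 and 0.064).

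Other rises were called in each pair alone. Transcripts of meu1, which encodes a genus-specific protein, were at 5.52, 4.57, 5.54 and 3.98 CPM in WT18 against 0.403, 1.37 and 0.721 CPM (2.54 ± 0.43, adjusted p = 0.0012, edgeR), with 2.58 in the new and 2.59 in the earlier pair. SPAC22G7.03, of 236 amino acids, was at 23.3, 19.2, 7.97 and 9.88 CPM against 1.61, 3.88 and 2.64 CPM (2.49 ± 0.50), with 2.99 in the new and 1.83 in the earlier pair. SPAPJ695.02 was at 4.32, 4.71, 6.74 and 12.3 CPM against 0.856, 0.849 and 1.11 CPM (2.90 ± 0.43), with 2.31 in the new and 3.48 in the earlier pair. In none of these did WT18 and control libraries overlap. Only the call of SPAC22G7.03 among them held against both control sets and in the authors' deposited table.

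The largest fall in WT18 was that of SPBC29A3.21, one of the most abundant orphan transcripts per length. It was at 42.8, 41.4, 18.1 and 10.9 CPM against 101, 96.6 and 111 CPM (-1.84 ± 0.46, adjusted p = 0.0075, edgeR), with -1.25 in the new and -2.69 in the earlier pair. SPCC306.11, of 283 amino acids, was at 117, 132, 219 and 89.5 CPM against 411, 383 and 483 CPM (-1.60 ± 0.27). SPCC584.16c, lower in ALT-S5A and ALT-P6A as well, was at 30.8, 32.2, 25.8 and 30.6 CPM against 81.5, 68.4 and 82.3 CPM (-1.36 ± 0.14). SPAC56F8.15 was at 4.46, 4.34, 5.51 and 7.89 CPM against 15.2, 15 and 18.4 CPM (-1.54 ± 0.24). All 4 genes lay below each control library in both pairs. SPBC25B2.08 (-1.56 ± 0.29) was at 12.1, 14.8, 28.1 and 28.1 CPM against 60.9, 56.7 and 65.9 CPM, but changed by 0.62 against control set 1, and by -0.98 in the earlier pair. The lower calls numbered 14 without control set 2 replicate 6.

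**Figure D5:**
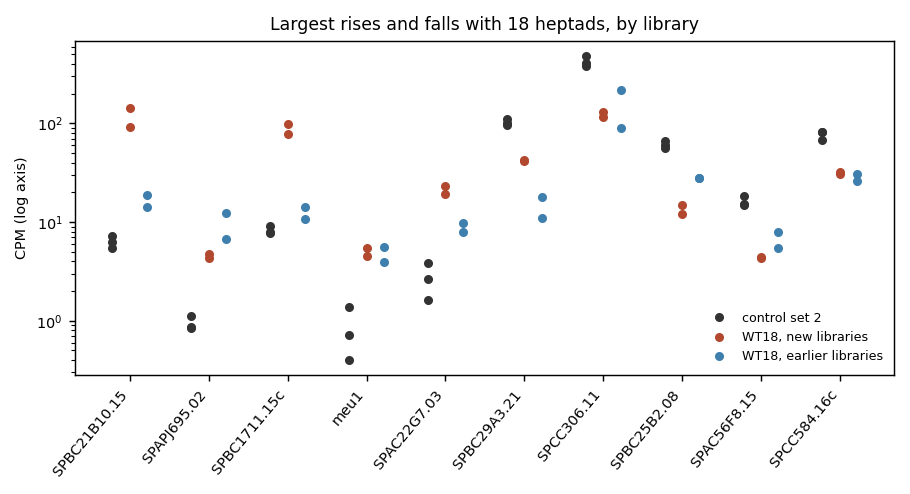
CPM, on a log axis, of the 10 orphan genes named in WT18, in control set 2, the new WT18 libraries and the earlier WT18 libraries (points, 1 per library). SPBC21B10.15 stands at 144 and 92.9 CPM in the new pair and at 14.1 and 18.7 CPM in the earlier one, above control values of 5.49 to 7.16 CPM; SPCC584.16c lies between 25.8 and 32.2 CPM in both pairs.

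The control sets, with the same strain label, differed in 14 of 183 orphan genes (7.65%; all genes 8.89%), 6 higher in set 2 (all genes 5.03%) and 8 lower (all genes 3.86%). SPAPB24D3.07c, of 300 amino acids, was at 1440, 1610 and 2320 CPM in set 1 and 245, 229 and 246 CPM in set 2 (-2.85 ± 0.17, adjusted p = 5.9e-06, edgeR). SPCC1235.01 was at 589, 636 and 881 CPM in set 1 and 116, 242 and 206 CPM in set 2 (-1.85 ± 0.25). SPBC25B2.08 was at 14.3, 14.1 and 11.7 CPM in set 1 and 60.9, 56.7 and 65.9 CPM in set 2 (2.25 ± 0.13). The 2 sets did not overlap for any of these 3 genes. SPBC713.09 (-1.37 ± 0.37) did not pass the test without control set 1 replicate 3 (-0.99) or control set 2 replicate 6 (adjusted p = 0.072). The counts moved to 10 and 11 higher without control set 1 replicate 1 and 2, and to 13 and 16 lower without control set 1 replicate 1 and control set 2 replicate 5.

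The meu and tam genes form named groups among the orphan genes. Of the 7 meu genes, 5 or 6 were tested; the higher calls numbered 4 for Y1F, 3 for S2A and WT18, 2 for S2A-S7A and ALT-P3A, and 1 each for T4A, ALT-S5A and ALT-P6A, and none of the tested meu genes was called lower in any of these. Over all genes tested, the share called higher was 4.68% for Y1F, 7.23% for S2A, 5.89% for S2A-S7A and 5.27% for T4A. It was 1.96% for ALT-P3A, 2.96% for ALT-S5A, 3.12% for ALT-P6A and 24.8% for WT18. The meu genes' median log2 fold change was 1.04 in Y1F and 1.18 in WT18, against medians of -0.02 and 0.05 over all genes tested. Of the 5 tam genes, 1 was higher in Y1F (tam13), T4A (tam13) and ALT-P6A (tam8), 2 in WT18, and none was lower. The medians of the tam genes were 0.34 in Y1F and 0.76 in WT18. Of 18 tested genes with a common name, 6 were higher and none lower in Y1F, where 8 of the 165 without one were higher and 14 lower (all genes 4.68% and 5.11%).

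The newer annotation gives a symbol to 17 genes that had none in the deposited table. Of the 16 or 17 tested, none was called in S2A, S2A-S7A or the ALT alleles, 1 in Y1F (all genes 9.79%) and 2 in T4A (all genes 13.2%). In WT18, where 5 of 17 were higher (all genes 24.8%) and 1 lower (all genes 11.7%), med9, a subunit of the Mediator complex (1.57 ± 0.26), mrps26, a mitochondrial ribosomal protein (1.49 ± 0.22), atg38, an autophagy gene (1.56 ± 0.21), and smp1 (1.36 ± 0.29) and smp4 (1.70 ± 0.45) were higher, and pex8, a gene of peroxisomal protein import (-1.29 ± 0.11), was lower. Of these, smp4 also passed the test in Y1F (1.32 ± 0.15) and T4A (1.01 ± 0.20). Among all these calls only that of smp4 in Y1F held against both control sets and in the authors' deposited table. From control set 1 to control set 2, med9 changed by -0.94, mrps26 by -0.6, atg38 by -0.44 and smp1 by -0.19. In the same comparison smp4 changed by 0.06 and pex8 by 0.81. Transcripts of adg1 were at 119 and 132 CPM in the new and 432 and 180 CPM in the earlier WT18 libraries, against 534, 485 and 554 CPM in control set 2. Each WT18 library lay below the controls and the fall was -1.29 ± 0.41, with -2.02 in the new pair and -0.64, without a call, in the earlier pair. This call did not hold against both control sets and in the authors' deposited table. In the substitution alleles adg1 had changes between -0.49 and 0.08.

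Known gene groups moved in the same libraries and are given for comparison. Of 12 core stress genes 8 were higher and none lower in Y1F (all genes 4.68% higher, 5.11% lower). Of 11 chaperone genes 6 were higher in Y1F and 7 in T4A (all genes 5.27% higher in T4A). Of 14 genes of mating and meiotic entry, 6 were lower in Y1F, 10 were lower and 1 higher in S2A-S7A (all genes 9.61% lower, 5.89% higher), and none passed 2-fold in T4A. Between the control sets 6 of them were lower in set 2 (all genes 3.86%). The 3 genes of the phosphate regulon were all higher in ALT-S5A and ALT-P6A (all genes 2.96% and 3.12%), and 2 were lower in T4A (all genes 7.89%). The mug genes, another group named for meiotic expression, had 9 higher and 2 lower of 88 tested in Y1F. In WT18 they had 25 higher and 6 lower of 90, near the 24.8% higher and 11.7% lower of all genes. The part of these groups in the orphan gene values was not tested.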

How the data were processed

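Polyadenylated RNA of fission yeast was sequenced in 31 libraries of 10 groups (29 sample records). The values used are raw counts per gene, deposited by the authors in one table; per the submitters' processing notes HISAT2 2.1.0, SAMtools and HTSeq 0.10.0 were used with genome build ASM294v2. The strand setting and the annotation used for counting are not given in the sources used here. The authors also deposited log2 fold changes with adjusted p-values for each allele, named as DESeq2 output per the labels, which are quoted only where named. Product wording and common names come from these deposited tables.

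The members and gene lists were chosen with earlier results of these data known. Columns were joined to samples by title, except that the 3 columns of control set 2 were assigned by elimination and the 2 earlier WT18 columns carry only their group. Counts of all genes were fitted with edgeR 4.0.16 (R 4.3.3) by the quasi-likelihood F test after TMM scaling and the default filter on low counts, with p-values adjusted over all genes tested (6006 to 6149). The direct contrasts of 2 alleles also had the libraries of a control set in the fit. This was control set 1 for S2A-S7A against S2A and control set 2 for ALT-P3A against ALT-P6A. Calls needed an adjusted p below 0.05 and a change of 2-fold or more; the standard error is the log2 fold change divided by the square root of F. CPM used all libraries scaled together, and RPKM the exon lengths of a newer RefSeq annotation, from which no coordinates are given because its build differs. Named genes were, for each allele, the 5 called genes that rose most and the 5 that fell most (3 each way in the other comparisons), provided that their average log2 CPM reached 1 and the groups did not overlap, the 5 with the highest RPKM, the 5 with the widest range of group means, and called genes with a common name; other genes called against both control sets were listed after their values were seen. Same-numbered libraries of S2A-S7A and S2A deviated together (correlations of 0.46, 0.11 and 0.2). None of the other pairs of groups examined did so for each number. Those pairs were Y1F, S2A and S2A-S7A, each with control set 1, and ALT-P3A with ALT-P6A. The models were tested on simulated data. Alternatives were DESeq2 1.42.0 size factors and its Wald test, no filter beyond 1 count, all groups in 1 fit, the other control set, a replicate block, the WT18 pairs alone and leaving out each library. Promoter motifs were not analysed here.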

Additional observations from a re-analysis of the deposited data

Results flagged for a closer look

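In WT18, 4 orphan genes stood on opposite sides of all 3 libraries of control set 2 in the new and in the earlier pair of libraries, and the fitted changes of the pairs had opposite signs. SPCC338.18 had a log2 fold change of 3.47 in the new pair (21.7 and 24.7 CPM) and -1.15 in the earlier pair (0.753 and 1.01 CPM), each a call on its own. SPBC13G1.15c had 2.59 in the new pair (20.6 and 15.5 CPM) and -0.49 in the earlier pair (2.43 and 1.57 CPM). SPAC1399.06 had -0.48 in the new and 0.77 in the earlier pair, and SPAPB18E9.05c had 0.33 in the new and -0.79 in the earlier pair. The differences between the pairs were not tested. The pairs differ in strain, mating type label, RNA purification, library kit and instrument, which cannot be told apart.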

How the results depend on the processing

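Of 260 alternative counts of called orphan genes, 229 lay within 1.5 times the reported count, and of 1005 alternative values of 85 gene and comparison pairs 946 kept direction and call, 53 kept the direction but lost the call (24 with the other control set) and 6 reversed. With the other control set the counts became 11 higher and 5 lower in ALT-P3A, 10 higher in ALT-S5A and 9 lower in WT18. The reversed values, all with the other control set, were -0.07 for SPBPB7E8.01 in S2A, -0.99 and 0.62 for SPBC25B2.08 in S2A-S7A and WT18, 0.03 for SPBC713.09 in S2A-S7A, 0.12 for SPAC1805.10 in T4A and -0.07 for SPCC1235.01 in ALT-S5A; the difference between the control sets was measured and its cause was not tested. In ALT-P3A, DESeq2's Wald test called 2 higher, no filter gave 2 lower and 1 fit of all groups 0 lower; between the control sets no filter gave 10 higher in set 2. With a replicate block the contrast of S2A-S7A with S2A had 3 lower calls. In Y1F, S2A, S2A-S7A and ALT-P3A against ALT-P6A the block moved no count past 1.5 times, and it ended no call of a named gene. In none of the pairs of groups examined did every library correlate best with its own number. For the comparisons with control set 2 no paired fit could be made, because it shares fewer than 2 replicate numbers with the alleles.

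Leaving out 1 library gave 10 to 25 higher calls in T4A, 2 to 19 higher and 1 to 2 lower in ALT-P3A, 6 to 11 higher in ALT-S5A, 7 to 15 higher in ALT-P6A, 14 to 22 lower in WT18, 6 to 11 higher and 6 to 16 lower between the control sets, 2 to 7 higher and 1 to 4 lower in S2A-S7A against S2A, and 1 to 3 lower in ALT-P3A against ALT-P6A. Low counts limit the S. pombe-specific genes most: 59 to 62 of the 80 were tested in each allele comparison, against 123 to 125 of the 130 genus-specific genes.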
